A study of Mus musculus with 4 samples.

Results

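The genes described here are 9 scaffold genes of the postsynaptic density: Shank1, Shank2, Shank3, Dlg4, Dlgap1, Dlgap2, Dlgap3, Dlgap4 and Homer1. They were chosen by name, not by any measured value, but with earlier results of these data known. They are 9 of 21853 nuclear protein-coding genes with an annotated coding transcript. A peak belonged to a gene when it overlapped an exon of any of its transcripts in GENCODE release M21 (mouse genome mm10). N6-methyladenosine (m6A) is a methyl mark on adenosines of RNA, and m6A-seq maps it by sequencing RNA fragments pulled down with an antibody against m6A. The series holds 4 samples of whole brain, 2 of m6A immunoprecipitation (IP) and 2 of input RNA. All came from mice of 4 weeks, given as strain C57BL/6J in the sample labels and as Prrc2a flox/flox in the design text. No Cre is named for them, and neither a treatment nor a second genotype was compared. Each IP sample has its own peak list, with the fold enrichment of each peak, a linear ratio of IP over input. The input samples enter through that ratio alone.

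The postsynaptic density is the protein layer under the membrane of excitatory synapses. In it Dlg4 (PSD-95) holds glutamate receptors and their partners at the membrane through PDZ domains, Dlgap proteins (also called GKAPs or SAPAPs) bind the guanylate kinase domain of Dlg4, Shank proteins bind the Dlgap proteins from below, and Homer1 ties Shank to metabotropic glutamate receptors and calcium channels. m6A is usually placed in the sequence context GGAC, most often GGACT in DNA letters, and in mRNAs it is known to be frequent in long internal exons and near stop codons.

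The sequences below lie inside intervals that had a peak in both replicates. They show the candidate contexts in the coding exons and isoform-specific ends on which the results turn. Each was read from the plus strand of GRCm38, whose chromosome sequences are those of mm10, and which is the sense strand of all 9 genes, and runs 5′ to 3′. Capitals mark GGACT, or GGAC where the next base is not T. The peaks are at least 200 nt wide, so a capital marks a match and not a measured methylated base.

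The large coding exons of the Shank genes are shown because they carry most of the coding signal of that family. The stretches are chr7:44351959-44352058 in exon 24 of Shank1, chr7:144409728-144409827 in exon 22 of Shank2 and chr15:89549435-89549534 in exon 21 of Shank3. The last line is chr7:144420895-144420994 in the terminal exon of Shank2, inside the interval with the highest replicate 1 enrichment of all 9 genes.
Shank1 exon 24: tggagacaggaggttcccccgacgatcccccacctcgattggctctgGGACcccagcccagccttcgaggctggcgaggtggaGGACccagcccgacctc
Shank2 exon 22: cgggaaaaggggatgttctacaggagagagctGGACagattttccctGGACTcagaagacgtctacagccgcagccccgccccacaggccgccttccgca
Shank3 exon 21: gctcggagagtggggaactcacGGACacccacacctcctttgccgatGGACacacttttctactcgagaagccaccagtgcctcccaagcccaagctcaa
Shank2 exon 23: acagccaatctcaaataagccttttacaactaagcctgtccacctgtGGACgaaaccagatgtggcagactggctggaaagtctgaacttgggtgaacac

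For the Dlgap genes the stretches are those of the interval with the highest lower value of the replicates in Dlgap1, Dlgap2 and Dlgap3, and of the largest coding exon of Dlgap4. They lie at chr17:70761215-70761314, chr8:14727630-14727729, chr4:127195450-127195549 and chr2:156700946-156701045.
Dlgap1 exon 7: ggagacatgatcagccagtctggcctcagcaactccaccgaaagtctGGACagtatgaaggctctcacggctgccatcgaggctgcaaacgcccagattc
Dlgap2 exon 5: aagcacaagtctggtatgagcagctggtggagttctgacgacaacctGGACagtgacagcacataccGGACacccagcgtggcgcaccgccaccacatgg
Dlgap3 exon 3: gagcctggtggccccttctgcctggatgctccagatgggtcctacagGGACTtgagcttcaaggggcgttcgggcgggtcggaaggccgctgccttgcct
Dlgap4 exon 3: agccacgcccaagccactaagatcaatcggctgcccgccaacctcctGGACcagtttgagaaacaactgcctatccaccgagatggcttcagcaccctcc

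For Dlg4 and Homer1 the intervals strongest in replicate 1 lie in exons of particular isoforms. The Dlg4 stretch, chr11:70018920-70018949, begins at the start codon of Dlg4-203, and its GGACT overlaps that start codon. The Homer1 stretch, chr13:93366547-93366576, lies in the 3′ UTR of Homer1-206, with the adenosine of GGACT 109 nt after the stop codon.
Dlg4-203 start: atGGACTgtctctgtatagtgacaaccaag
Homer1-206 end: gaaggaagagatGGACTtgggaaggctcat

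All 9 genes carried exonic peaks in both replicates. Replicate 1 had 54 peaks over their exons and replicate 2 had 61. Over all protein-coding genes, 54.3% had an exonic peak in replicate 1 and 49.5% in replicate 2. A peak was called shared where 1 bp or more was also covered in the other replicate, which held for 48 of the 54 and 41 of the 61. Their common stretches formed 48 shared intervals, and each of the 9 genes had at least 4, while 45.5% of all protein-coding genes had any. Since 1 group of 2 samples was measured, no test between conditions was possible, and each value is given for both replicates. The study's methods call the 2 IP samples biological replicates, and the labels do not give the animals behind each. The lists hold no read counts, so depth is unknown, and a gene without a peak cannot be told apart from one with too few reads.

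The genes differed in how much of their mRNA the shared intervals took up. Each gene is represented by its transcript of longest coding sequence (CDS). Dlgap3 had the highest share, 54.4% of its 4207 nt, followed by Shank1 with 52.7% of 9826 nt, Dlgap4 with 50.5% of 4851 nt and Dlgap2 with 50.2% of 3842 nt. The middle of the order held Shank2 at 38.4%, Dlg4 at 34.2%, Shank3 at 28.6% and Dlgap1 at 25.7%. Homer1 was lowest, at 11.4% of the 4287 nt of Homer1-202, and 3 of its 6 shared intervals lie in exons of other transcripts. Per gene the count of shared intervals ran from 4 in Shank2 and Shank3 to 7 in Shank1, with a median of 5 against 2 over the 9936 protein-coding genes that had any. The scaffold mRNAs are also longer, with a median of 4712 nt against 3334 nt. Counted per kb of exon of all transcripts, the median was 0.501 shared intervals against 0.399 for the 9936 genes, from 0.279 in Dlgap1 to 1.11 in Dlgap3.

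**Figure D1:**
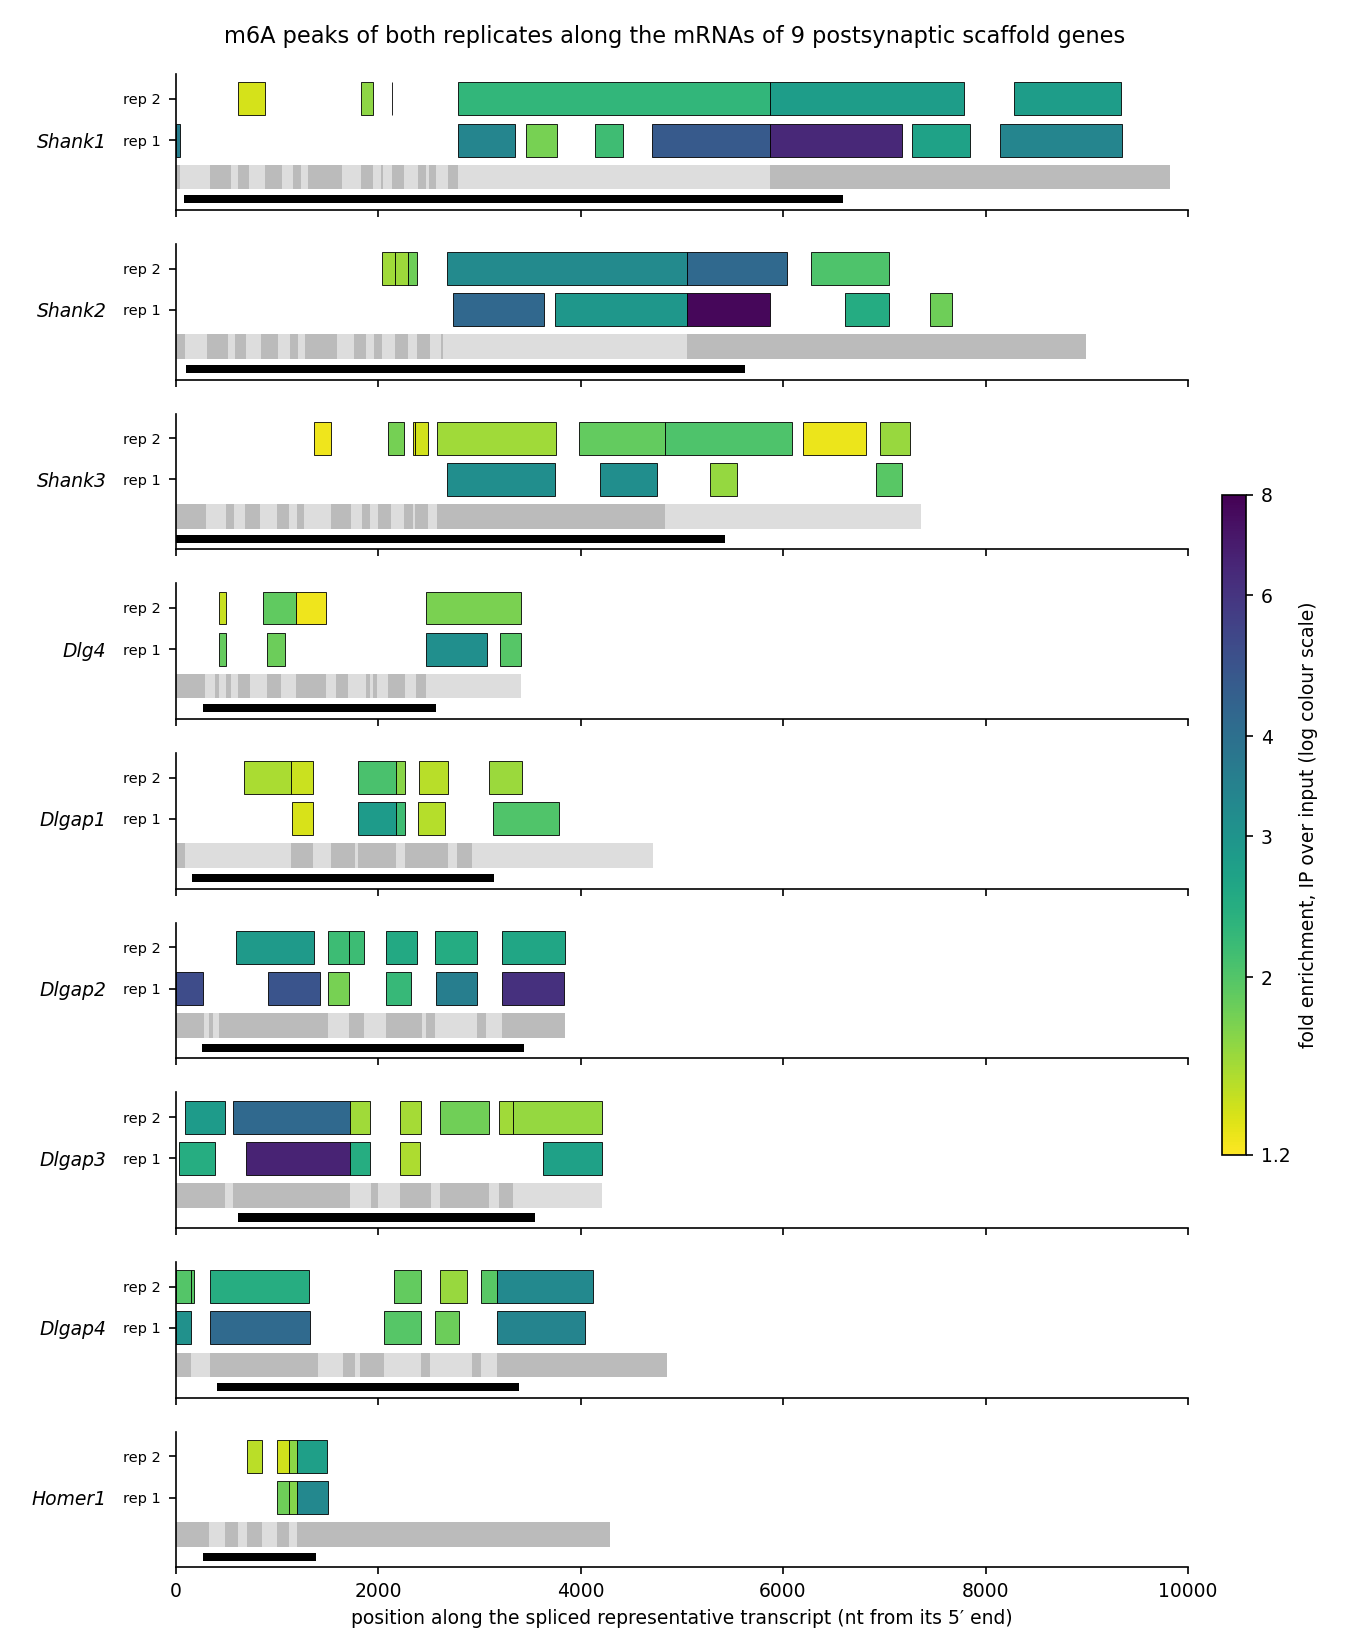
Exonic parts of the m6A peaks of replicate 1 (lower row) and replicate 2 (upper row) along the representative mRNA of each of the 9 genes, in nt from the 5′ end, coloured by fold enrichment on a log scale. Grey blocks are exons in alternating shades and the black bar is the CDS; peaks of neighbouring exons touch because introns are removed. The 3 Shank mRNAs have peaks in both replicates over their long 3′ exons only, while the Dlgap mRNAs have them in several separate exons.

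Shank1, Shank2 and Shank3 are the large scaffolds of the deep layer of the postsynaptic density. All 15 of their shared intervals lay in the last 2 exons of the transcript, and none of their 61 internal exons under 400 nt held any. The exon before the last is by far the longest internal exon in each, and codes for 47.5% of the Shank1, 43.6% of the Shank2 and 41.7% of the Shank3 CDS. This is the proline-rich part of the protein, to which Homer and cortactin bind.

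Shared intervals covered 74.8% of exon 24 of Shank1 (3088 nt), 91.6% of exon 22 of Shank2 (2407 nt) and 72.2% of exon 21 of Shank3 (2257 nt). The 3 exons are counterparts: in an alignment of the coding sequences, 2208 nt of the Shank1 exon were paired with the Shank2 exon at 67.4% identity and 2008 nt with the Shank3 exon at 68.9% identity. In Shank1 the exon held 4 separate replicate 1 peaks, with fold enrichments of 3.38, 1.77, 2.16 and 4.72 from 5′ to 3′. A single replicate 2 peak of 3114 nt with a fold enrichment of 2.29 lay over all 4, so the count of 4 shared intervals there rests on how replicate 1 was split. Replicate 1 thus had its highest value at the 3′ end of the exon, and replicate 2 gave no resolution within it. In Shank2 the replicate 1 peaks had 4.25 and 2.93 under 1 replicate 2 peak of 3.24. In Shank3 both lists had 2 peaks, of 3.17 and 3.15 in replicate 1 and of 1.58 and 1.90 in replicate 2.

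The terminal exon holds the SAM domain, through which Shank proteins form sheets, the stop codon and the 3′ UTR. The interval over the stop codon was the strongest of the gene in replicate 1 for Shank1 (6.48 in replicate 1 and 2.80 in replicate 2) and for Shank2 (7.75 and 4.20). Among all matching pairs, peaks of the 2 lists that were each other's best partner, the Shank2 peaks stood high. They were at the 99.0th percentile of the replicate 1 values and the 95.9th of the replicate 2 values. Shank3 had 1.62 and 2.03 over the stop codon, the lowest replicate 1 value and the highest replicate 2 value of its 4 intervals, so the replicates gave opposite orders. In the 3′ UTRs Shank1 had 2 further intervals (2.68 and 2.80, then 3.38 and 2.81), Shank2 had 1 (2.48 and 2.04) and Shank3 had 1 (1.96 and 1.61). The first of the Shank1 ones lies under the same replicate 2 peak of 2.80 as the stop codon interval, so replicate 2 gives it no separate value. The more distal of the Shank1 3′ UTR intervals also overlaps exons of 1700008O03Rik on the opposite strand, and the sources used here do not say that the libraries kept strand.

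The many short 5′ exons of the Shank genes, which code for the ankyrin repeats, SH3 and PDZ domains, showed peaks in replicate 2 alone. There were 11 such peaks over exons under 400 nt, 3 in Shank1, 4 in Shank2 and 4 in Shank3, with fold enrichments from 1.23 to 1.83. Some lay mostly in introns. Exonic bases were 7 of 210 nt in a Shank1 peak, 21 of 200 in a Shank2 peak and 24 of 200 in a Shank3 peak. None of the 11 had a partner in replicate 1. Replicate 1 alone had a peak of 3.59 over the 44-nt exon 1 of Shank1.

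**Figure D2:**
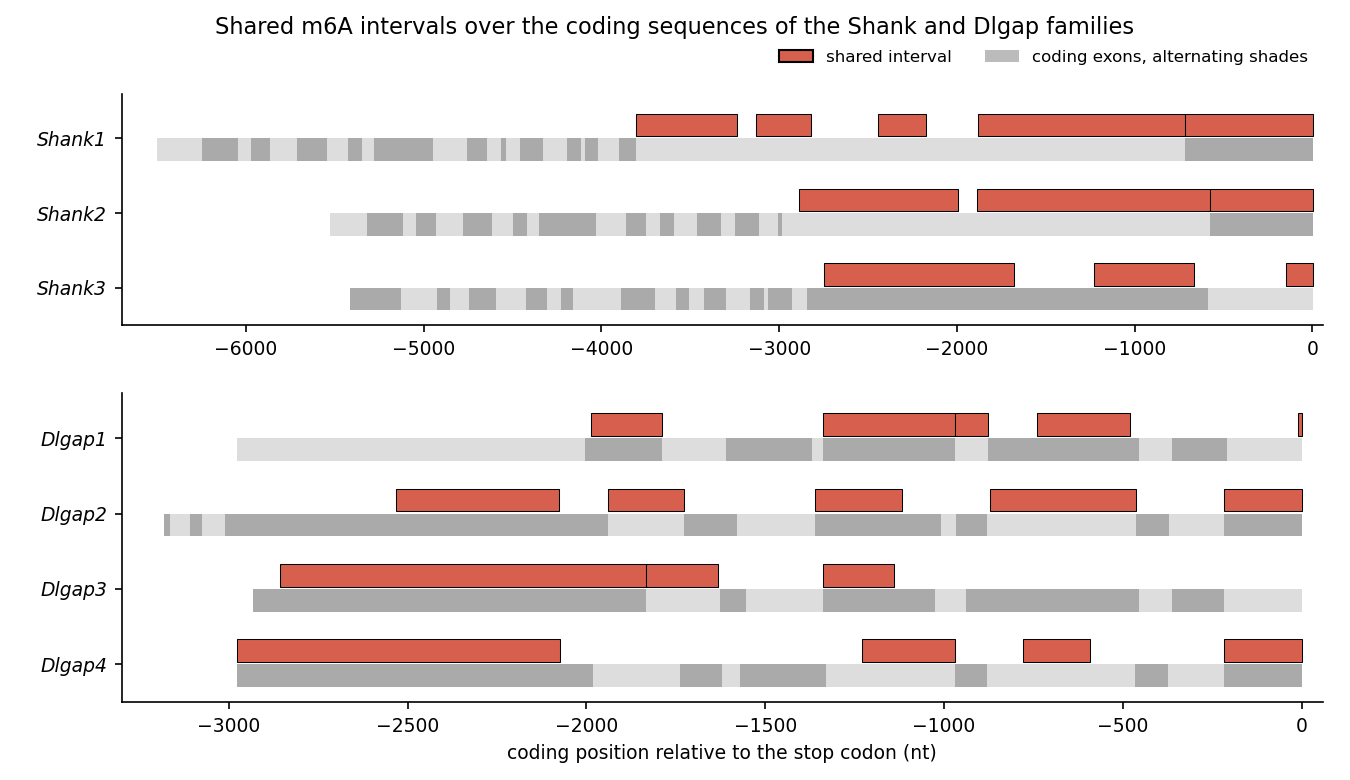
Shared intervals (red) over the coding sequences of the Shank genes (upper panel) and the Dlgap genes (lower panel), in nt relative to the stop codon at 0, with coding exons in alternating grey. In Shank1 to Shank3 every interval lies in the 2 exons nearest the stop codon, and in the Dlgap genes the counterpart of Dlgap3 exon 7 is marked in all 4 genes while the long early exon is marked in all but Dlgap1.

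The Dlgap genes, the link between Dlg4 and Shank, had 21 shared intervals spread along the CDS. Each gene has a large early coding exon of 1043 to 1152 nt that codes for the N-terminal part of the protein, where the repeats that bind the guanylate kinase domain lie. That exon carried the strongest interval of Dlgap3, with 6.67 in replicate 1 and 4.21 in replicate 2 over 89.1% of exon 3. Dlgap4 had 4.17 and 2.46 over 91.3% of its exon 3. Dlgap2 had 4.89 and 2.86 over 42.5% of its exon 5. Dlgap1 was the exception, since its exon 2 of 1043 nt had no peak in replicate 1 and a single peak of 1.53 in replicate 2.

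Aligned by coding sequence, the 10 coding exons of Dlgap3 could be followed through the family at identities of 68.1% to 68.3% over the whole CDS. The counterpart of exon 7 (314 nt in Dlgap3) was marked in 4 of 4 genes. Its values were 2.85 and 2.07 in Dlgap1, 2.24 and 2.55 in Dlgap2, 1.52 and 1.55 in Dlgap3, and 1.98 and 1.89 in Dlgap4. In replicate 1 all 4 values lay below the median of all matching pairs, 3.03. In replicate 2 all but that of Dlgap2 lay below the median of 2.33. The levels thus differed between the genes, and what recurred was the place. The counterpart of exon 9, an exon of 413 to 485 nt in the C-terminal part, was marked in Dlgap1 (1.48 and 1.47), Dlgap2 (3.57 and 2.48) and Dlgap4 (1.84 and 1.61). In Dlgap3 itself that exon had a peak of 1.81 in replicate 2 alone. The counterpart of exon 4 was marked in 3 of 4 genes, with 1.35 and 1.40 in Dlgap1, 1.77 and 2.18 in Dlgap2, and 2.47 and 1.58 in Dlgap3. Exon 8 had a shared interval in Dlgap1 alone (2.17 and 1.68), and there an exon of AC079441.1 lies on the opposite strand. Exons 5, 6, 10 and 11 had none in any of the 4 genes.

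At the 3′ end, an interval lay over the stop codon of Dlgap2 (6.13 and 2.61), Dlgap4 (3.41 and 3.27) and Dlgap1 (2.03 and 1.60). The Dlgap2 value in replicate 1 was the highest of that gene, and in Dlgap4 the replicate values were nearly level. In Dlgap3 the last interval (2.71 and 1.62) began after the stop codon and ran to the end of the 3′ UTR. Its replicate 2 peak covered the stop codon, but its replicate 1 peak did not. The 5′ UTRs of Dlgap3 (2.48 and 2.84) and Dlgap4 (3.10 and 1.99) were marked in both replicates. The 5′ end of Dlgap2 had a peak of 5.18 in replicate 1 with no partner. Dlgap1 was the weakest of the family, with no interval above 2.85 in replicate 1 or 2.07 in replicate 2.

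Dlg4 encodes PSD-95, the most abundant scaffold of the layer next to the membrane. It had 6 peaks in each replicate and 6 shared intervals. The strongest in replicate 1 lay in the 506-nt exon 1 of Dlg4-203, with a fold enrichment of 4.03 in replicate 1 and 1.85 in replicate 2. This exon is not part of Dlg4-204, the representative transcript, which starts upstream at an exon with no peak in either list. It encodes the N-terminal end that carries the palmitoylation site of PSD-95, and the shared interval covers 96.6% of it, the printed start codon included. The interval over the stop codon had 3.14 and 1.76, and 1 further interval in the 3′ UTR had 1.97 under the same replicate 2 peak of 1.76. The other 3 intervals lay over short exons between the N-terminus and the middle PDZ domain, with values of 1.87 and 1.41, 1.95 and 1.68, and 1.84 and 1.91. One of these covers exons 5 and 6 of Dlg4-204 together with an alternative exon of Dlg4-220. No Dlg4 interval exceeded 1.91 in replicate 2, so the gene was low throughout in that list.

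Homer1 encodes long isoforms, with a coiled coil that tetramerises the protein, and short isoforms that lack it and loosen Homer complexes. Its strongest interval lay in the final exon of the short transcripts Homer1-205 and Homer1-206, with 4.11 in replicate 1 and 5.56 in replicate 2. The replicate 2 value was the highest of all 9 genes and stood at the 99.5th percentile of the replicate 2 values of all matching pairs. It was also among the 9 of 41 matching pairs that were higher in replicate 2. The interval covers 254 nt, or 29.6% of the 857-nt final exon of Homer1-206, and lies in the 3′ UTR behind a CDS of 233 codons. The final exon of Homer1-204, which has the 186 codons of the short activity-induced form Homer1a, differed: over its 4523 nt there was no shared interval, and a single replicate 2 peak of 1.46 lay at its 5′ end, where it overlaps exon 5 of the long form.

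At the 5′ end of Homer1, intervals lay in the 5′ UTRs of the alternative opening exons of Homer1-207 (4.03 and 2.57) and Homer1-206 (3.66 and 1.89). Both overlap the 1546-nt opening exon of Homer1-207. The interval named for Homer1-206 also covers the whole 504-nt opening exon of Homer1-203, a long form of 366 codons. It is therefore not particular to short forms. The opening exon of the representative Homer1-202 had no peak. Over the stop codon of the long form the interval had 3.31 and 2.77, and it covers 298 nt, or 9.65%, of a final exon of 3089 nt. The coiled-coil exons 7 and 8 were marked weakly, with 1.83 and 1.38 in exon 7 and with 1.70 and 1.67 in exon 8. By replicate 1, 3 of the 4 strongest Homer1 intervals sit at transcript ends that Homer1-202 does not have. Peaks are not assigned to transcripts in the lists, and isoform shares were not measured here.

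**Figure D3:**
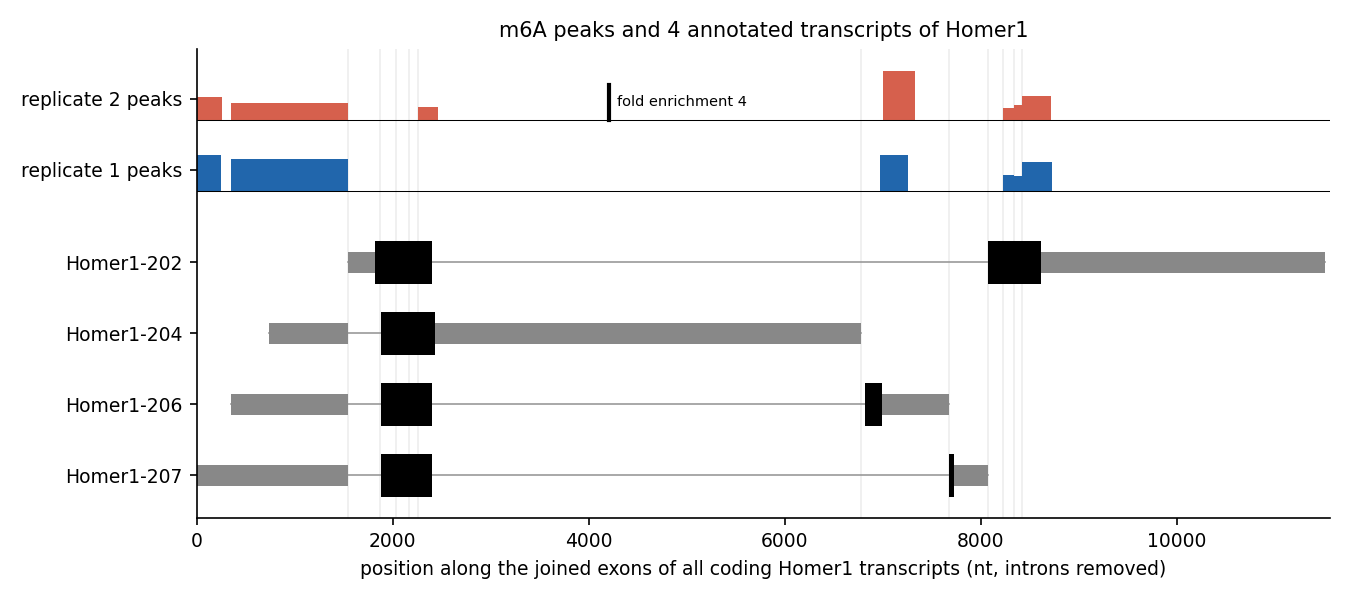
Homer1 peaks of replicate 1 (blue) and replicate 2 (red) over 4 annotated transcripts, along the joined exons of all coding Homer1 transcripts in nt with introns removed. Bar height is fold enrichment (the black scale bar is 4); in the transcripts, thick black is CDS and grey is UTR. The tallest replicate 2 bar, 5.56, lies in the 3′ UTR of Homer1-206, and the long final exon of Homer1-204 is empty apart from the low replicate 2 peak at its start.

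Long exons held peaks more often than short ones. Of the 11 internal exons of at least 400 nt, found in 7 of the 9 genes, 9 held a shared interval, or 81.8%. The 2 without were exon 2 of Dlgap1 and exon 9 of Dlgap3. Of the 124 shorter internal exons 15 held one, or 12.1%, of which 8 were in Dlgap genes and 7 in Dlg4 or Homer1. Over the 9346 multi-exon representative transcripts of all protein-coding genes that had a shared interval, the same shares were 75.5% and 7.49%. All 9 terminal exons of the scaffold transcripts were marked, against 76.5% of those of the 9346.

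What differed more was how much of these exons lay in intervals. Long internal exons made up 26.8% of the mRNA bases of the 9 genes and 46.6% of the bases in shared intervals. Over all representative transcripts with a shared interval, single-exon ones included, they made up 8.03% and 19.2%. In the scaffold genes 68.4% of their bases were covered, against 47.9% over the 9346. Terminal exons were covered over 41.5% of their bases against 22.1%. These shares pool few exons of related genes, and the 3 Shank exons alone hold most of the long internal bases. Internal exons under 400 nt were also covered more, over 14.3% of their bases against 7.43%. The higher coverage was thus not confined to long exons. First exons went the other way and were covered slightly less than over the 9346.

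**Figure D4:**
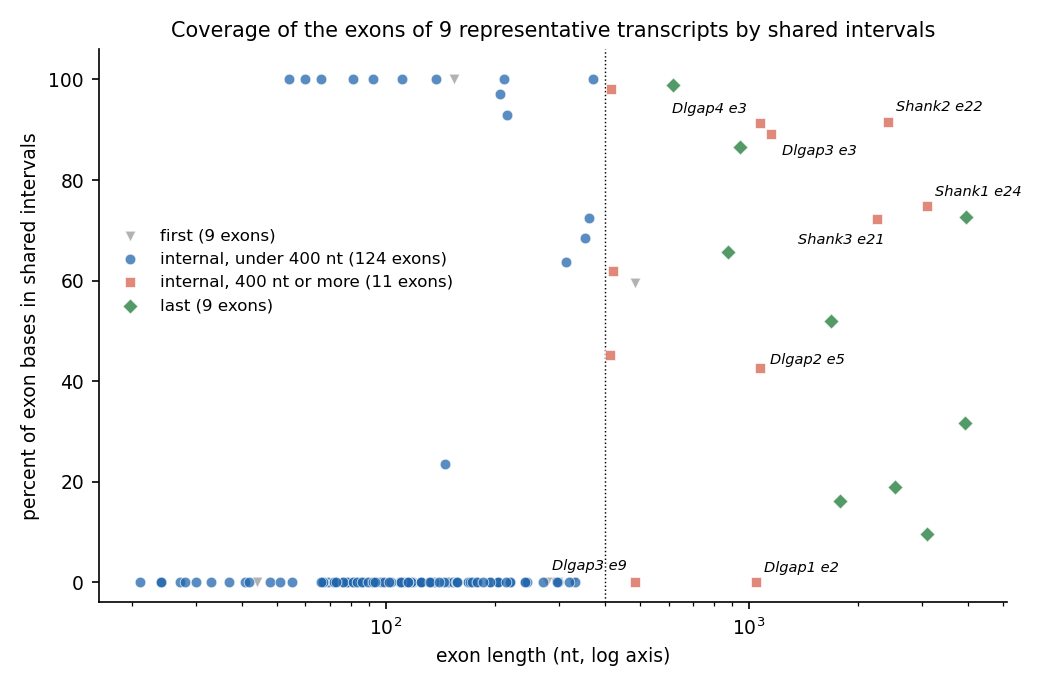
Percent of the bases of each exon of the 9 representative transcripts that lie in shared intervals, against exon length in nt on a log axis, with 1 point per exon and the dotted line at 400 nt. Most internal exons under 400 nt sit at 0, and of the 11 longer ones only exon 2 of Dlgap1 and exon 9 of Dlgap3 do.

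Placed by their midpoint, the CDS held 30 of the 48 shared intervals (62.5%; 48.4 to 74.8 as the Wilson 95% interval), the 3′ UTRs 12 (25%) and the 5′ UTRs 6 (12.5%). Such intervals cover counting error only, with the peaks as units. One of the 6 is the Dlg4 interval over exons 5 and 6 of Dlg4-204, both coding there: its midpoint is intronic, and the alternative exon of Dlg4-220 that holds most of its exonic bases is 5′ UTR. In exons of at least 400 nt lay 34 of 48 (70.8%, 56.8 to 81.8). In 8 of the 9 genes a shared interval covered the stop codon. Dlgap3 was the exception, where only the replicate 2 peak covered it. Of all 21853 protein-coding genes 5092 (23.3%) had such an interval, while 9936 of the 21853 had any shared interval. Of the 22 other scaffold and associated genes described below, 13 had it. The midpoint was within 200 nt of the stop codon for 8 of 48 (16.7%, 8.70 to 29.6). Counted on representative transcripts alone, the scaffold genes had 71.4% of midpoints in CDS against 61.4% over all genes, and 16.7% within 200 nt of the stop codon against 23.1%. Exons of at least 400 nt of any class held 67.4% of their intervals (52.5 to 79.5) against 64.7% over all genes, a difference smaller than this interval. The classes differed more: internal exons of at least 400 nt held 32.6% (20.5 to 47.5) against 14.1%. That 32.6% includes the 4 intervals of Shank1 exon 24 under 1 replicate 2 peak and the 2 of Shank2 exon 22 under another. It thus rests partly on how replicate 1 was split. Terminal exons held 32.6% against 46.7%, and internal exons under 400 nt 30.2% against 25.2%. So the stop codon was marked in nearly all of these genes, while most of their intervals lay elsewhere in the CDS.

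The motif GGACT, searched on the sense strand of the RNA, was present in 18 of the 48 shared intervals (37.5%, 25.2 to 51.6). On representative transcripts the share was 37.2% against 42.6% over all genes. The shorter GGAC, which every GGACT contains, was in 83.7% against 81.7%. Interval lengths differ, which bears on such shares. Of consecutive windows of 30 nt over all representative mRNAs 2.77% hold GGACT and 10.5% hold GGAC, and of windows of 100 nt 9.86% and 32.2% do. Among all 56 GGACT sites in the 9 representative mRNAs 23 (41.1%) fell in shared intervals, close to the 39.4% of bases that lie in them. The genes were uneven, with few sites in each. Shank1 had 8 of its 13 sites inside intervals, which hold 52.7% of its mRNA bases, and Shank3 had 1 of 7, with 28.6% of bases. In Dlgap2, with 50.2% of bases in intervals, both of its sites were inside, both in the interval of exon 12. Dlgap4 had no GGACT site in its CDS at all. Its printed exon 3 stretch accordingly carries GGAC alone.

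Fold enrichments of the 2 replicates could be set side by side for 41 matching pairs, peaks that were each other's best partner. The medians were 2.85 in replicate 1 and 1.99 in replicate 2, against 3.03 and 2.33 for all 22457 pairs. Replicate 1 was higher in 32 of 41 (78.0%), and in 77.9% of all pairs. The median log2 ratio of replicate 1 over replicate 2 was 0.36 (SD 0.45 over pairs), against 0.37 for all pairs, so the offset of the scaffold genes is that of the lists as a whole. By family the replicate 1 and replicate 2 medians were 3.16 and 2.16 for the 10 Shank pairs, 2.48 and 2.03 for the 20 Dlgap pairs, 1.95 and 1.76 for the 5 Dlg4 pairs, and 3.49 and 2.23 for the 6 Homer1 pairs. The ranges of the families overlap in both replicates.

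**Figure D5:**
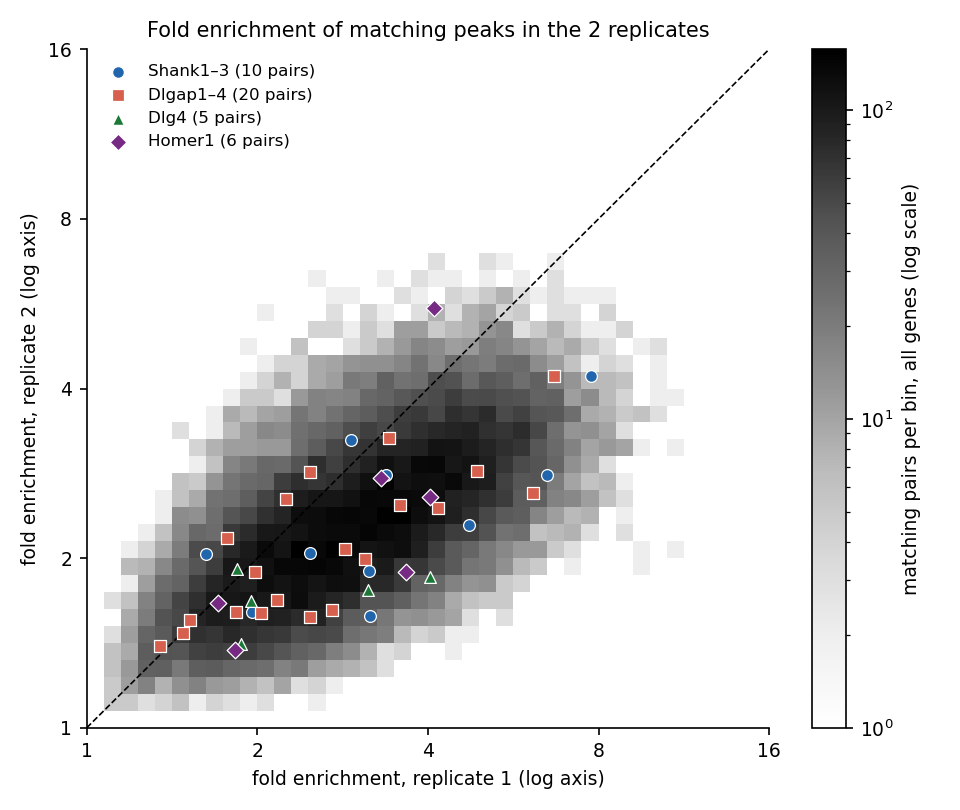
Fold enrichment in replicate 1 against replicate 2 for the 41 matching pairs of the scaffold genes (coloured points) over the density of all 22457 pairs (grey), both axes and the grey scale being log. The dashed line marks equal values; 32 of the 41 points lie on its replicate 1 side, and the Homer1 point at 4.11 and 5.56 lies farthest on the other.

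The number of peaks ran against this offset. Replicate 2 has the shorter list, 30134 peaks against 38533. Over the exons of all representative transcripts it had 0.897 peaks for each peak of replicate 1, but over those of the 9 genes it had 1.22, from 56 peaks against 46. With all transcripts counted, replicate 2 had more peaks in 4 genes, fewer in 2 and the same number in 3, and the widest gap was in Shank3, with 9 against 4.

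Most replicate 2 peaks without a partner were weak and lay in short exons. Of all 61 replicate 2 peaks 20 had no partner, and 17 of these lay in exons under 400 nt. Counted on representative exons this was 16 of 19, or 84.2%, against 69.6% over all protein-coding genes, so such peaks lay mostly in short exons in the list as a whole too. The median fold enrichment of the 20 was 1.57, against 1.99 for the 41 with a partner. In replicate 1, 6 of 54 had none. Over representative exons 93.5% of the replicate 1 and 66.1% of the replicate 2 peaks of these genes were shared, against 68.9% and 76.8% over all protein-coding genes. The scaffold genes thus stood above the list in replicate 1 and below it in replicate 2.

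As a check of the tissue, shared intervals were found for 5 of 6 neuronal marker genes (all but Gad1), for 6 of 6 oligodendrocyte, 6 of 6 astrocyte and 5 of 5 microglial ones, and for 1 of 8 genes of other tissues (Myh6). Whole brain thus mixes cell types, and the neurons that carry postsynaptic densities were not separated. Of 22 other scaffold and associated genes of the synapse, all had at least 1 shared interval, and 13 had it over the stop codon. Baiap2, which links actin to the membrane, and Gphn, the scaffold of inhibitory synapses, had 1 each. Their median was 0.414 shared intervals per kb of exon against 0.501 for the 9 genes, with ranges that overlap. Internal exons of at least 400 nt held 17.0% of their intervals (10.6 to 26.2) against 32.6% (20.5 to 47.5), and these intervals overlap as well. The 32.6% counts separately the 4 shared intervals of Shank1 that lie under 1 replicate 2 peak, and the 2 of Shank2 that lie under another.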

How the data were processed

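mRNA from whole brain was fragmented and immunoprecipitated with an antibody against m6A, and IP and input libraries were sequenced. The study's methods name trimming, alignment to mm10 with TopHat, a filter for uniquely mapped reads and MACS2 per IP replicate with its input, duplicates kept. The submitters' processing notes name TopHat2 2.0.9 and MACS2. The deposited values are peak coordinates and a fold enrichment, a linear ratio made by the authors' peak caller. Keeping duplicates can raise that ratio where few molecules were sequenced. No counts were analysed, so depth and its precision are unknown.

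Peaks were overlapped with GENCODE M21 exons in Python 3.11.15 (pandas 2.3.3, numpy 2.4.6), checked against bedtools 2.31.1 and on simulated data. Peak coordinates count both ends, which makes the shortest 200 nt long. Shared peaks overlap by at least 1 bp, and shared intervals are their common bases. An interval was placed by its midpoint on the representative transcript, or, if that has no exon there, on the transcript with the longest CDS that has. Where the midpoint was intronic (1 Dlg4 interval), the exon with most of its bases was used. Coding sequences were aligned globally with Biopython 1.88. Shares have Wilson 95% intervals. Named are all 9 genes, with the intervals that stand out in each. The genes, lists and alternatives were chosen with earlier results of these data known. Alternatives changed the overlap, a merge of nearby peaks, a fold enrichment filter, the exon limit, stop window, motif, transcripts and replicate.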

Additional observations from a re-analysis of the deposited data

Results flagged for a closer look

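Peaks inside the 9 genes but outside every annotated exon were not part of the comparisons above. Replicate 1 had 25 of them and replicate 2 had 5, so 31.6% and 7.58% of all peaks within these genes were intronic. Over all protein-coding genes the shares were 9.55% and 2.09%. These shares take no account of intron length, and that of the 9 genes in replicate 1 rests largely on Dlgap1. Of the 25 in replicate 1, 4 overlapped a replicate 2 peak: 1 in Shank1 (3.71 and 1.86), 1 in Dlgap1 (4.04 and 3.66) and 2 in Dlgap2 (5.79 and 2.07, then 5.73 and 2.85). Over all protein-coding genes 13.1% of the intronic replicate 1 peaks and 77.9% of the intronic replicate 2 peaks were shared, so few partners for replicate 1 peaks is a trait of the whole list. Dlgap1 held 16 of the 25, with fold enrichments from 2.85 to 11.6, and 15 of these had no partner. The lists hold neither strand nor input coverage, and what these peaks come from was not tested.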

How the results depend on the processing

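Of 36 alternatives over 7 results, 24 left the value within its spread or count limit. Keeping peaks of fold enrichment 2 or more lowered the 48 shared intervals to 22 and the median per kb of exon from 0.501 to 0.251, and raised the share in exons of at least 400 nt from 70.8% to 90.9%. The median per kb was 0.377 with an overlap of at least 50% of both peaks and 1.03 over representative exons alone. Leaving out 1 replicate gave 0.501 to 0.650 per kb and 49.2% to 68.5% in exons of at least 400 nt, the 49.2% being that of the 61 replicate 2 peaks, without replicate 1. Among internal exons alone that share was 53.8%. A stop codon window of 100 nt gave 8.33% in place of 16.7%. GGAC in place of GGACT gave 83.3% in place of 37.5%, and 100 nt around the midpoint gave 12.5%. The median log2 ratio of 0.36 turned to -0.0062 once the median of all pairs was subtracted. No paired analysis was possible because the series has 1 group of IP samples with processed values. Depth limits every statement on a missing peak, since the lists give neither reads nor input coverage.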
